A study of Mus musculus with 20 samples.

Results

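Tnfrsf11b, the gene of osteoprotegerin (OPG) that is disrupted in Opg-/- mice, lies on mouse chromosome 15, and its neighbours on that chromosome are described here in gastrocnemius muscle. The set is a list of 36 named genes, Tnfrsf11b included, whose starts lie within about 10 Mb of its own. Of these, 35 were found in the expression table and 31 passed the filter on low values (1 or more in 4 or more libraries), out of 32285 genes in the table and 17948 that passed. RNA was sequenced from 12-week-old male mice at day 7 after surgery on the sciatic nerve. In each mouse the nerve of the right hind limb was cut (den), and that of the left hind limb was exposed and left intact (sham). The 4 groups were Opg-/- den, WT den, Opg-/- sham and WT sham, with 5 libraries each. Opg-/- mice were homozygous for the germline allele Tnfrsf11b tm1Smoc, so that every tissue and not muscle alone carried it, and WT mice were C57BL/6. The strain is given for WT libraries and the allele for Opg-/- libraries. The study says that mice of both genotypes were bought, and calls the WT mice behind its cell cultures littermates. Whether the sequenced mice came from the same litters is not given in the sources used here.

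OPG is a secreted decoy receptor. It binds RANKL and keeps it from its receptor RANK, which is best known for driving the formation of bone-resorbing osteoclasts. The genes around Tnfrsf11b belong to many unrelated pathways, among them Mediator and TFIID subunits of the transcription machinery (Med30, Taf2), the mTOR inhibitor Deptor, the hyaluronan synthase Has2, the cholesterol enzyme Sqle, the endosomal WASH subunit Washc5 and the transcription factor Myc.

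Values are estimated read counts per gene divided by 1 size factor per library, here called normalized expected counts. Between 15186247 and 20102295 reads stood behind a library, and 1 read was worth 0.797 to 1.26 units. The reads of libraries 1 and 2 of the WT sham group varied by no more than counting error (chi-square 0.324 per degree of freedom, where the 39 other within-group pairs had 6.78 to 25.7). Their mean was counted as 1 sample, which leaves n = 4 for WT sham, n = 5 for each other group and 19 libraries in all, and the first WT sham value in each list is that mean. Differences were tested with limma on log2(value + 1), with p-values adjusted over all 17948 genes, and a gene is called at an adjusted p under 0.05. Fold changes on this scale understate the change of genes with few reads. The labels do not tie a library to a mouse, so p-values measure the spread between these libraries. The 10 defining genes of muscle fibers took 6.48% to 8.85% of all values in den libraries and 15.2% to 18.4% in sham libraries, and 0 of them were called between genotypes (median log2 fold change −0.10 in den and 0.22 in sham limbs). Of 60 tested markers of 8 other cell types, limma called 0 between genotypes in either limb, and limma voom on the recovered reads called 0 as well. At an unadjusted p under 0.05 in limma there were 5 in den limbs, against 6.89% of all genes. In sham limbs there were 14, against 2146 of all 17948 genes. The 10 macrophage markers together stood at 1212 to 2169 in Opg-/- sham libraries, against 2080 to 3171 in WT sham libraries (median log2 fold change −0.75, 8 of 10 at an unadjusted p under 0.05), and none of the 60 was at 0 in all libraries. Their part in the sham results was not tested. In whole muscle, fewer cells of a type and less RNA per cell cannot be told apart.

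Tnfrsf11b itself (ENSMUSG00000063727, chr15:54250619-54278484, minus strand, in mm10) was read rarely. The reads in libraries 1 to 5 numbered 2, 8, 6, 14 and 5 in Opg-/- den and 6, 2, 4, 6 and 8 in WT den, and 5, 6, 8, 10 and 8 in Opg-/- sham and 2, 2, 1, 2 and 5 in WT sham. In den limbs the genotypes overlapped (5.98 ± 3.75 in Opg-/- and 4.41 ± 1.90 in WT, SD, n = 5 each). In sham limbs every Opg-/- value, 6.06, 7.54, 9.58, 11.2 and 9.55, lay above every WT value, 2.18, 1.18, 2.15 and 5.51. The log2 difference was 0.29 in den limbs (p = 0.54, exact permutation test, two-sided) and 1.48 in sham limbs (p = 0.0159, exact permutation test, two-sided), where 5 against 4 libraries can give no smaller p. The complete separation in sham limbs rests on the scaling. Opg-/- sham 1 and WT sham 5 held 5 reads each, worth 1.21 and 1.10 units a read. The permutation test was run at this scaling only. Over all genes the sham difference did not pass in limma (adjusted p = 0.19). The sham direction goes against what the label of a knockout would give. The table holds 1 value per gene and does not say which exons the reads fell on, and the exons that the allele lacks are not given in the sources used here, so these values do not check the genotype labels. Opg-/- therefore stands for the libraries labelled so. The study itself reports genotyping of its mice by PCR on tail DNA and a western blot of OPG protein in both genotypes.

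The 30 tested neighbours lie 6 on the proximal side of Tnfrsf11b and 24 on the distal side. The nearest are Samd12 (0.38 Mb proximal) and Enpp2 (0.67 Mb distal), and the farthest is Asap1 (10.1 Mb distal). The members that were not tested are Csmd3, Slc30a8, Colec10 and Mal2, which reached a value of 1 in at most 2 libraries, and Zfp572, which was not analysed here. Slc30a8, the zinc transporter of insulin-secreting cells, was listed at 0 in every library. Among the tested members 27 had a value of at least 1 in every library, and Aard was the least often detected (9 of 19 libraries).

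In den limbs, Deptor and Med30 were lower and Sqle was higher in Opg-/- muscle. Deptor stood at 0.595 and Med30 at 0.520 of the WT level, and Sqle at 2.21 times that level, on the log2(value + 1) scale. These 3 calls among 31 members (9.68%) compare with 11 calls among all 17948 genes tested (0.0613%), of which 3 (27.3%) are thus members of a list that makes up 0.173% of the genes tested. By direction, 1 member was higher and 2 were lower, where 0.0334% and 0.0279% of all genes were. Since the list was drawn up with results of these data known, the share describes it and tests nothing. The groups did not overlap for the same 3 members, against 1.47% of all genes.

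Deptor (ENSMUSG00000022419, chr15:55112317-55259271, plus strand, 0.83 Mb distal) encodes a protein that binds mTOR and restrains both mTOR complexes, the kinases that promote protein synthesis and growth. Its values were 1371, 1339, 1315, 1217 and 1457 in Opg-/- den libraries, against 2235, 2766, 2092, 2012 and 2212 in WT den libraries. The highest Opg-/- value lay well below the lowest WT value. The means were 1339.8 ± 86.9 in Opg-/- and 2264 ± 295 in WT (SD, n = 5 each), a log2 fold change of −0.75 (SE 0.091, 95% interval −0.94 to −0.56, limma adjusted p = 1.23e-04). No gene of the table had a lower p in this comparison. Deptor shares 303 exon bases with the antisense gene Gm9920, and reads of the 2 strands were not separated, but Gm9920 held at most 18.5 units in any library.

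Med30 (ENSMUSG00000038622, chr15:52712408-52730564, plus strand, 1.57 Mb proximal) encodes a subunit of Mediator, the complex that links transcription factors to RNA polymerase II. Its values were 111, 102, 92.3, 103 and 72.7 in Opg-/- den libraries, against 163, 198, 162, 223 and 179 in WT den libraries. All Opg-/- values were lower than all WT values. The means were 96.0 ± 14.6 in Opg-/- and 185 ± 25.9 in WT (SD, n = 5 each), with a log2 fold change of −0.94 (SE 0.14, 95% interval −1.24 to −0.65, limma adjusted p = 0.00161). By p it ranked 4 among all genes.

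Sqle (ENSMUSG00000022351, chr15:59315077-59331192, plus strand, 5.04 Mb distal) encodes squalene epoxidase, a rate-limiting enzyme of cholesterol synthesis. It had 38.8, 52.6, 38.1, 41.6 and 47.3 units in Opg-/- den libraries, against 13.7, 24.3, 27.3, 12.1 and 22.3 in WT den libraries. The groups were apart, though the WT values spread more widely, with WT den 1 and WT den 4 the lowest. The means were 43.6 ± 6.17 in Opg-/- and 19.9 ± 6.66 in WT (SD, n = 5 each), with a log2 fold change of 1.15 (SE 0.23, 95% interval 0.68 to 1.61, limma adjusted p = 0.0411). It is the only member also past an absolute log2 fold change of 1, as were 0.0223% of all genes. The call was close to the threshold, as Sqle ranked 11 of the 11 genes called. It was lost (adjusted p 0.0506 to 0.159) without any one of Opg-/- den 1 to 5, WT den 1, 4 or 5, Opg-/- sham 3 or WT sham 4, while the log2 fold change stayed between 0.99 and 1.20. With no filter on low values (adjusted p = 0.0994), with den libraries fitted alone (0.129) or at equal library totals (0.0554) it did not pass either.

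**Figure D1:**
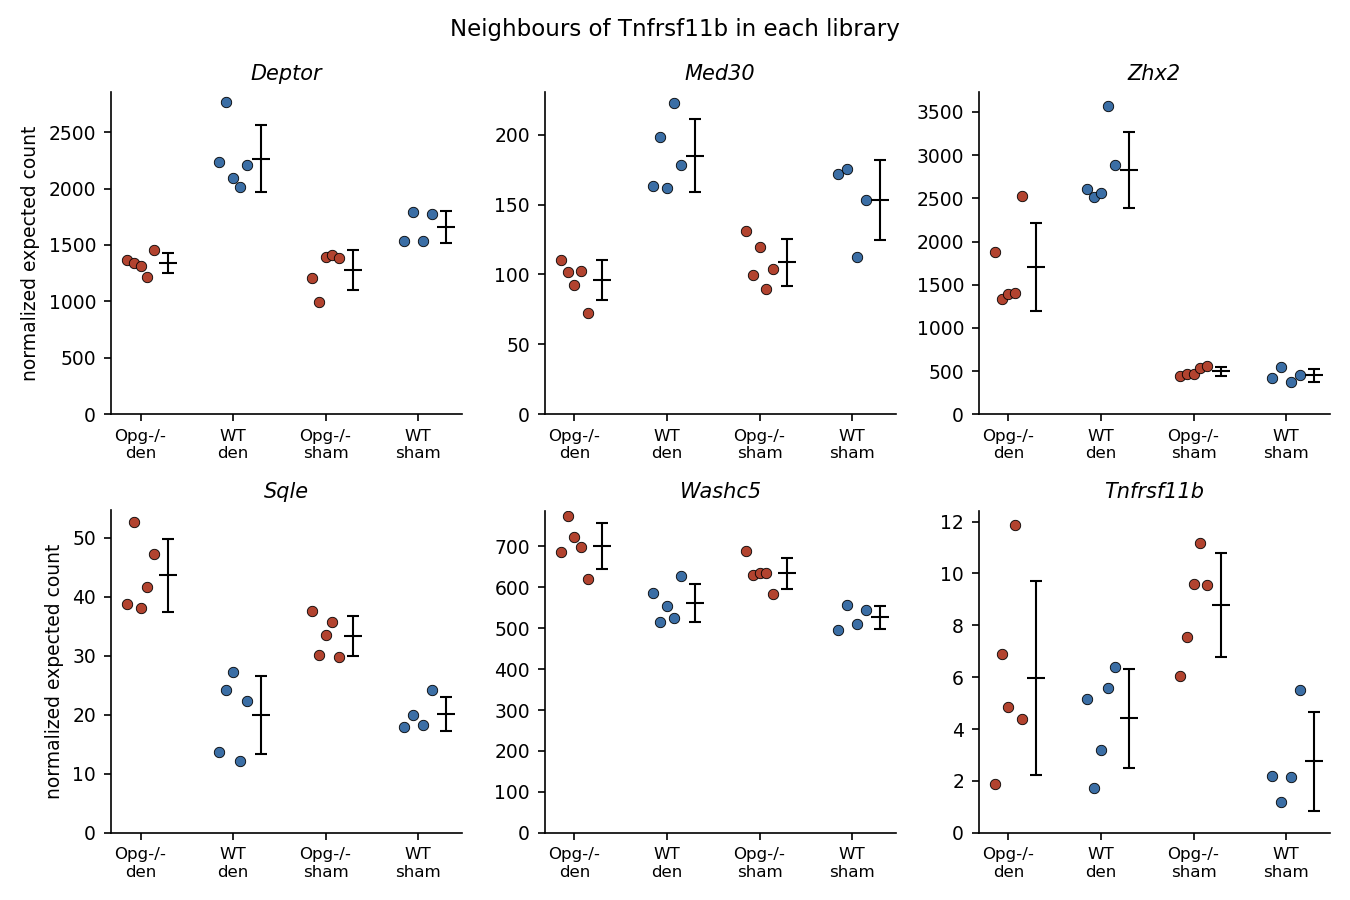
Normalized expected counts (y axis, linear, from 0) of 6 neighbours in each counted library, with a panel for each gene and a column for each group (red Opg-/-, blue WT), and the mean ± SD beside the points. WT sham 1 and 2 are drawn as their mean. Deptor and Sqle values of the 2 genotypes do not overlap in either limb, and Med30 values do not overlap in den limbs.

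Washc5 and Zhx2 came next and did not pass. Washc5 (ENSMUSG00000022350, chr15:59331997-59374167, minus strand), the strumpellin subunit of the WASH complex that builds actin on endosomes, ends 804 bases from the end of Sqle. It had 686, 774, 723, 699 and 622 in Opg-/- den libraries, against 587, 516, 555, 524 and 627 in WT den libraries. Only Opg-/- den 5 fell within the WT range, just below WT den 5. The log2 fold change was 0.32 (SE 0.073, limma adjusted p = 0.132).

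Zhx2 (ENSMUSG00000071757, chr15:57694665-57839832, plus strand), a homeobox repressor known in mouse liver for silencing alpha-fetoprotein after birth, was singled out here after its values were seen. It had 1875, 1333, 1391, 1409 and 2527 in Opg-/- den libraries, against 2604, 2513, 2562, 3571 and 2887 in WT den libraries. Of the Opg-/- libraries only number 5 reached the WT range. The log2 fold change was −0.76 (SE 0.16, limma adjusted p = 0.132). At an unadjusted p under 0.05 there were 6 members in den limbs, these 5 and Mtss1, an actin and membrane-bending protein (log2 fold change 0.16, limma adjusted p = 0.709), against 6.89% of all genes.

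The remaining members were not called in den limbs. The median log2 fold change of the 31 members was −0.0050, against 0.0026 over all genes tested, and the median absolute value was 0.109, against 0.116. Of the 31, 15 were above 0. For 17 members the 95% interval lay within 0.5 of 0 on the log2 scale, among them the cohesin subunit Rad21 (0.02, −0.09 to 0.13), the transcription factor Myc (−0.02, −0.30 to 0.26) and the Arf regulator Asap1 (−0.01, −0.22 to 0.19). Intervals reached past 1 for 8 members. Of these 3 were Med30, Sqle and Zhx2, and the other 5 averaged under 10 units in each den group, such as Has2 (−0.59, −1.62 to 0.43), Dscc1, a factor of sister chromatid cohesion (0.11, −0.87 to 1.09), and Anxa13, an annexin (−0.04, −1.10 to 1.01). For those 5 the interval includes a 2-fold difference in at least 1 direction.

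In sham limbs none of the 31 members was called by limma, and 0.106% of all genes were. At an unadjusted p under 0.05 there were 5 members of 31, and 2146 of all 17948 genes, and limma voom on the recovered reads called 0 members as well. The 5 were Tnfrsf11b, Sqle and Washc5, with higher values in Opg-/- libraries, and Deptor and Med30, with lower ones. Values did not overlap for Tnfrsf11b, Sqle, Washc5 and Deptor, against 3.01% of all genes.

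Deptor had 1205, 993, 1396, 1408 and 1388 in Opg-/- sham libraries, against 1532, 1794, 1537 and 1773 in WT sham libraries. The groups were apart, but by less than in den limbs. The log2 fold change was −0.38 (SE 0.097, 95% interval −0.58 to −0.19, limma adjusted p = 0.118). Med30 had 131, 99.3, 119.7, 89.4 and 104 in Opg-/- sham libraries, against 172, 175, 113 and 153 in WT sham libraries. WT sham 4 lay within the Opg-/- range and the other WT values above it. The log2 fold change was −0.48 (SE 0.15, 95% interval −0.79 to −0.18, limma adjusted p = 0.207).

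Sqle had 37.6, 30.2, 33.5, 35.8 and 29.8 in Opg-/- sham libraries, against 17.9, 20, 18.3 and 24.3 in WT sham libraries. Every Opg-/- value was above every WT value. The log2 fold change was 0.71 (SE 0.24, 95% interval 0.21 to 1.20, limma adjusted p = 0.259). Washc5 had 689.8, 629, 635, 635 and 584 in Opg-/- sham libraries, against 496, 556, 510.1 and 544 in WT sham libraries. These groups were also apart, by a narrow margin between Opg-/- sham 5 and WT sham 3. The log2 fold change was 0.27 (SE 0.077, limma adjusted p = 0.169), and 0.13 (SE 0.088) at equal library totals.

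Aard had the largest sham difference after Tnfrsf11b and stood near the limit of detection. Its reads numbered 1, 0, 3, 3 and 5 in Opg-/- sham libraries 1 to 5, against 0, 0, 1, 0 and 1 in WT sham libraries 1 to 5. In den limbs they numbered 1, 0, 1, 0 and 2 in Opg-/- and 0, 0, 0, 3 and 2 in WT. Both genotypes held libraries without a read in each limb, and the sham log2 fold change of 1.10 (SE 0.56) did not pass (limma adjusted p = 0.444).

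Over the 31 members the median log2 fold change in sham limbs was 0.04, against 0.02 over all genes, and the median absolute value was 0.176, against 0.149. Apart from Aard, Med30, Tnfrsf11b, Deptor, Sqle and Washc5, the other 25 members ran between −0.63 (Has2) and 0.44 (Fer1l6, a ferlin) with adjusted p of at least 0.498. In den limbs the same 25 ran between −0.76 (Zhx2) and 0.30 (Fer1l6) with adjusted p of at least 0.132. The sham interval lay within 0.5 of 0 for 14 members and within 1 for 24.

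Deptor and Sqle were the members whose genotypes did not overlap in either limb, each in the same direction in both. Over all genes 0.0836% did so. With Med30 and Washc5 they were also the 4 members at an unadjusted p under 0.05 in both limbs with the same sign, against 0.847% of all genes. The sign was shared by 21 of 31 members, against 53.0% of all genes. The comparisons share no library, but the limbs came from the same mice. The interaction of genotype and denervation was called for 0 of 31 members by limma (0.00557% of all genes) and for 0 by limma voom, with 4 members at an unadjusted p under 0.05, against 6.96% of all genes. For Zhx2 the genotype difference in den limbs minus that in sham limbs was −0.90 on the log2 scale (SE 0.23, limma adjusted p = 0.467). Without Opg-/- den 5 this became −1.06 with an adjusted p of 0.0382, and was called. The other 3 were Deptor (−0.36, adjusted p = 0.628), Med30 (−0.46, adjusted p = 0.711) and Mtss1 (0.27, adjusted p = 0.689).

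**Figure D2:**
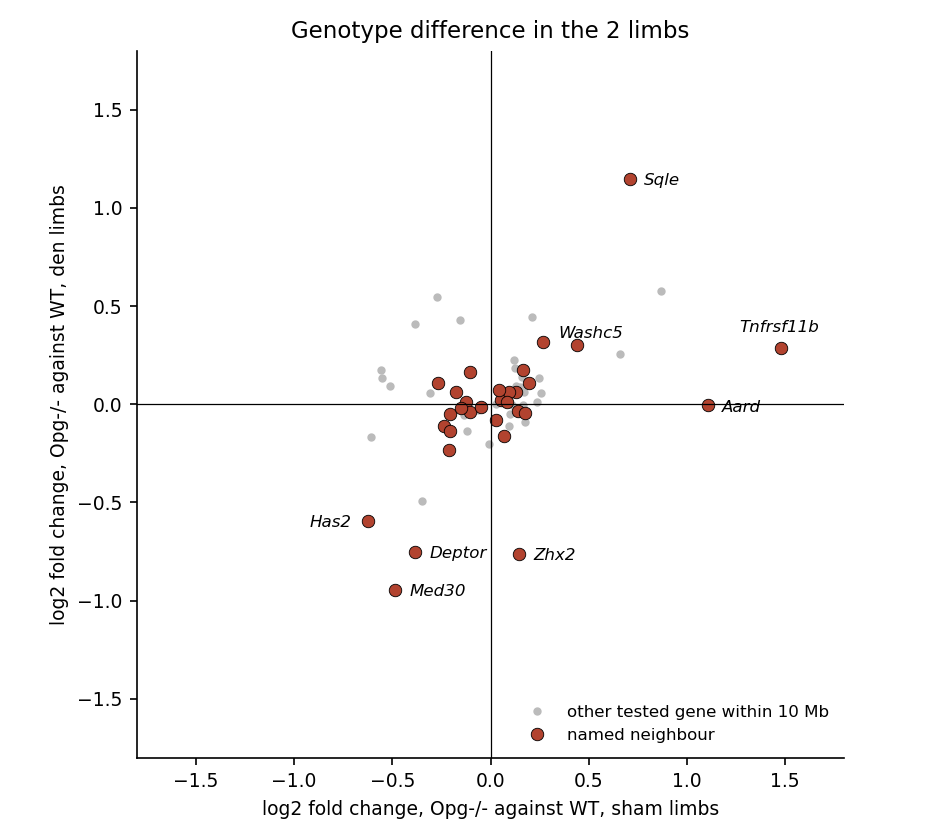
Log2 fold change of Opg-/- against WT in den limbs (y axis) and in sham limbs (x axis) for the 31 tested neighbours (red) and the 32 other tested genes within 10 Mb (grey). Deptor (−0.75 in den, −0.38 in sham), Med30, Sqle and Washc5 lie off both axes on the same side, and Zhx2 (−0.76 in den, 0.14 in sham) and Tnfrsf11b (0.29 in den, 1.48 in sham) lie closer to 1 axis, though neither passed the interaction test (adjusted p = 0.467 and 0.711).

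Along the chromosome the called members were not next to one another, though a gene that was not called may still differ. Med30 lies 1.57 Mb proximal, and Deptor lies 0.83 Mb and Sqle 5.04 Mb distal of Tnfrsf11b, with uncalled genes between them. Between Med30 and Tnfrsf11b lie Ext1, a heparan sulfate polymerase (−0.11 in den, SE 0.13), and Samd12 (0.11, SE 0.36). The nearest named members to Deptor on its proximal side are Enpp2, which encodes autotaxin (0.06, SE 0.13), the TFIID subunit Taf2 (−0.03, SE 0.11) and Dscc1, and on its distal side Mtbp, an MDM2-binding protein (0.17, SE 0.25). Mtbp shares 330 exon bases with the antisense gene Mrpl13, which held at least 478 units in every library, where Mtbp held at most 38.0. Reads of the 2 strands were not separated. Between Deptor and Mtbp lies Col14a1, a collagen gene that is not on the list and was looked up after its values were seen (−0.17 in den and −0.61 in sham limbs, limma adjusted p = 0.961 and 0.383). None of these was called.

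About midway on the distal side, beyond Sqle, differences above and below 0 stood side by side. None of the genes concerned, Washc5, Nsmce2 and Trib1, was called in either limb. Washc5 and Nsmce2, the SUMO ligase of the SMC5/6 complex, start 79 bases apart on opposite strands. Nsmce2 differed by −0.16 in den limbs and 0.07 in sham limbs (SE 0.11 and 0.12), where Washc5 differed by 0.32 and 0.27. Trib1, a pseudokinase just beyond them, differed by −0.14 in den and −0.21 in sham limbs (SE 0.16 and 0.17).

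Within 10 Mb of Tnfrsf11b 62 genes were tested, of which 30 are on the list and 32 are not. In den limbs limma called 2 of 15 genes up to 2 Mb away (Deptor and Med30), 0 of 30 between 2 and 5 Mb, 1 of 17 between 5 and 10 Mb (Sqle), 0 of 78 between 10 and 20 Mb, and 1 of 562 farther away on chromosome 15. On all other chromosomes 7 of 17221 genes were called. In sham limbs 0 of the 62 were called, and 5 of them (8.06%) had an unadjusted p under 0.01, as did 3.58% of all genes. The 5 were among the named members, as were the 5 of 62 with such a p in den limbs, where the share was 1.87% of all genes. Of the 32 genes that are not on the list, limma and limma voom called 0 in either limb, and 1 (den) and 3 (sham) had an unadjusted p under 0.05. Their median absolute log2 fold change was 0.121 in den limbs and 0.168 in sham limbs, close to the 0.116 and 0.149 of all genes.

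**Figure D3:**
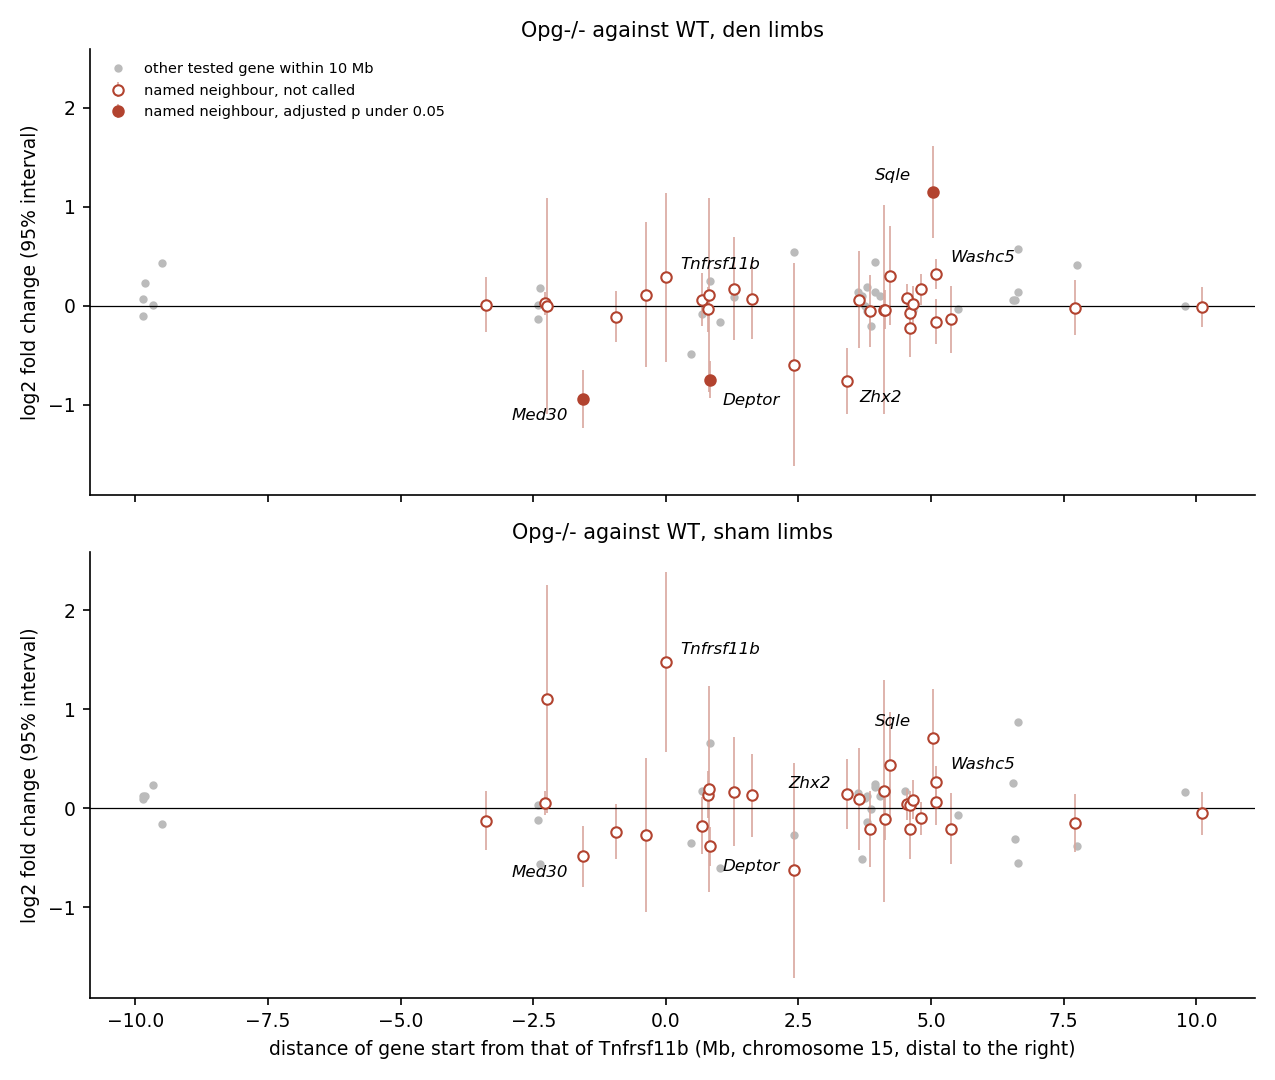
Log2 fold change of Opg-/- against WT with 95% intervals (y axis) by distance of the gene start from that of Tnfrsf11b (x axis, Mb), for den limbs (top) and sham limbs (bottom). Filled red points are called members (Med30, Deptor and Sqle, in den limbs), open red points the other members and grey points the 32 other tested genes within 10 Mb, none of which was called.

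Partner lists were drawn up for Sqle, Deptor, Rad21, Washc5, Ext1, Nsmce2 and OPG, and not for Med30 or the other members. None of the tested genes on these lists, members aside, was called between genotypes. Of 24 other tested genes of cholesterol synthesis and its control, limma and limma voom called 0 in either limb, with 3 at an unadjusted p under 0.05 in den limbs and 0 in sham limbs. Their den log2 fold changes ran between −0.35 and 0.23, where Sqle stood at 1.15. Of 10 other subunits and inhibitors of the mTOR complexes 0 were called, with 0 (den) and 2 (sham) at an unadjusted p under 0.05, and their den values ran between −0.30 and 0.23, where Deptor stood at −0.75. The 7 WASH partners of Washc5 held 0 calls, with 1 (den) and 2 (sham) at an unadjusted p under 0.05. Over the 6 partner lists, which also hold cohesin, heparan sulfate and SMC5/6 genes, 75 genes were tested besides the members and 0 were called in either limb by either method. At an unadjusted p under 0.05 in limma there were 9 in den limbs, against 6.89% of all genes. In sham limbs there were 8, against 2146 of all 17948 genes. RANK (Tnfrsf11a), the ligand TRAIL (Tnfsf10) and the RANK adaptor Traf6, the 3 tested partners of OPG, held 0 calls as well, with 0 (den) and 1 (sham, Tnfsf10) at an unadjusted p under 0.05. RANKL (Tnfsf11), also on that list, did not pass the filter on low values and was not tested.

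Nerve transection itself changed many members in both genotypes. In Opg-/- mice 13 of 31 members (41.9%) were called between den and sham limbs, 6 higher and 7 lower, against 54.9% of all genes (28.6% higher and 26.4% lower). In WT mice 14 of 31 (45.2%) were called, 8 higher and 6 lower, against 52.5% of all genes (26.9% higher and 25.7% lower). At this scaling the share was thus not above that of the whole table. At equal library totals 18 members were called in Opg-/-, 16 higher and 2 lower, and 14 in WT, 12 higher and 2 lower. At that scaling 10818 of all 17948 genes were called in Opg-/- and 9759 in WT. The median log2 fold change of all genes was then 0.42 in Opg-/- and 0.26 in WT. The 10 calls gained in Opg-/- were Asap1, Deptor, Ext1, Fam91a1, Myc, Rad21, Sntb1, Sqle, Trmt12 and Washc5, all higher in den limbs, and the 4 gained in WT were Med30, Sntb1, Trmt12 and Washc5, also higher. Called in both genotypes in the same direction were 11 members, namely Taf2, Zhx2, Tbc1d31, Atad2, Anxa13 and Mtss1 higher, and Enpp2, Tmem65, Rnf139, Tatdn1 and Trib1 lower. The matching share of all genes was not counted here, so the 11 describe no trait of the region.

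The largest rise was that of Tbc1d31, which encodes a centrosomal protein. Its values were 617, 564, 619, 591 and 573 in Opg-/- den libraries, against 18.2, 42.7, 35.9, 49.2 and 53.7 in Opg-/- sham libraries. In WT mice they were 609.5, 420.3, 587, 627 and 628 in den libraries, against 36.7, 45.9, 21.5 and 41.9 in sham libraries. Limbs were far apart in both genotypes, with log2 fold changes of 3.94 in Opg-/- (SE 0.23, limma adjusted p = 1.69e-11) and 3.98 in WT (SE 0.25, adjusted p = 4.46e-11).

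Zhx2 also rose. Its den values were listed with the genotype comparison, and its sham values were 445, 471, 466, 538 and 556 in Opg-/- and 424, 551, 378 and 452 in WT. Even the lowest den value of either genotype exceeded the highest sham value more than 2-fold. The log2 fold changes were 1.74 in Opg-/- (SE 0.16, limma adjusted p = 2.07e-08) and 2.65 in WT (SE 0.17, adjusted p = 1.53e-10). Anxa13 rose by 1.90 in Opg-/- and 2.12 in WT on the same scale, but from few reads. It had 2.54 to 8.62 units in Opg-/- den and 0 to 3.64 in Opg-/- sham libraries, and 3.21 to 11.2 in WT den and 0 to 2.35 in WT sham libraries. The chromatin ATPase Atad2 rose by 0.69 in Opg-/- and 0.53 in WT, Taf2 by 0.47 and 0.65, and Mtss1 by 0.74 and 0.47. In WT, Atad2 lost its call without WT den 1 (adjusted p = 0.0560) or without WT sham 1 and 2 together (0.0752).

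The largest fall was that of Tmem65, which encodes a mitochondrial inner membrane protein. Its values were 698, 633, 662, 644 and 616 in Opg-/- den libraries, against 2760.3, 2623, 2744, 2555 and 2603 in Opg-/- sham libraries. In WT mice they were 616, 687, 685, 519.7 and 598 in den libraries, against 2923, 2354, 2532 and 2554 in sham libraries. Den levels were thus near 0.24 of sham levels in both genotypes, with log2 fold changes of −2.03 in Opg-/- (SE 0.073, limma adjusted p = 1.48e-19) and −2.06 in WT (SE 0.077, adjusted p = 5.68e-19).

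Enpp2, whose product makes the signalling lipid lysophosphatidic acid, also fell. It had 98.3, 126, 110.1, 101 and 102 in Opg-/- den libraries, against 259, 273, 323, 361 and 246 in Opg-/- sham libraries. In WT mice it had 80.7, 112, 115, 91.4 and 120.4 in den libraries, against 269.8, 332, 308 and 415 in sham libraries. No den library reached the sham range, and the log2 fold changes were −1.43 in Opg-/- (SE 0.13, limma adjusted p = 1.86e-10) and −1.66 in WT (SE 0.14, adjusted p = 3.09e-11). Trib1 changed by −0.64 in Opg-/- and −0.71 in WT. Rnf139, a ubiquitin ligase of the endoplasmic reticulum, changed by −0.49 and −0.38, and Tatdn1, a nuclease-like protein, by −0.39 and −0.31. Rnf139 and Tatdn1 share 1140 exon bases on opposite strands and are read as 1 uncertain pair. When libraries were scaled to equal totals instead, which moved the median of all genes by 0.42 in Opg-/- and 0.26 in WT, Rnf139, Tatdn1 and Trib1 lost these calls in both genotypes and Tatdn1 changed sign in Opg-/- (0.06).

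A few members passed in only 1 genotype, and for none of them was the interaction called. Deptor rose in WT mice (log2 fold change 0.44, SE 0.097, limma adjusted p = 2.99e-04), whereas in Opg-/- mice its change was 0.08 (SE 0.091, 95% interval −0.11 to 0.26, adjusted p = 0.494). The means were 1339.8 ± 86.9 in Opg-/- den and 1278 ± 180.2 in Opg-/- sham libraries, and 2264 ± 295 in WT den and 1659 ± 144 in WT sham libraries (SD, n = 5, 5, 5 and 4). This contrast depended on the scaling, since at equal library totals Deptor was called in both genotypes, with 0.53 in Opg-/- (SE 0.11, adjusted p = 3.59e-04) and 0.75 in WT (SE 0.12, adjusted p = 1.64e-05). Samd12 passed in WT (−1.01, adjusted p = 0.0259), though not without WT den 4 (adjusted p = 0.0911) or WT sham 5 (0.0754), and stood at −0.63 in Opg-/-. Rad21 passed narrowly in WT (0.14, adjusted p = 0.049), with 0.10 in Opg-/-. Its den and sham values did not overlap in Opg-/- (1462 to 1539 against 1363 to 1416). In WT they did (1419 to 1518 against 1280 to 1421). At equal library totals Rad21 stood at 0.44 in WT (adjusted p = 6.92e-07) and 0.56 in Opg-/- (adjusted p = 3.56e-09), and was called in both.

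In Opg-/- mice alone Fer1l6 passed (−0.67, adjusted p = 0.022, and −0.53 in WT), though not without Opg-/- den 4 (0.0533), Opg-/- den 5 (0.0538) or Opg-/- sham 5 (0.0815). Nsmce2 also passed (−0.26, adjusted p = 0.048, and −0.03 in WT). The narrow calls of Rad21 and Nsmce2 rested on most libraries. Rad21 lost its call without any one of Opg-/- den 1 to 5, WT den 1, 2 or 5, Opg-/- sham 2, 3 or 5, or WT sham 2 to 5 (adjusted p 0.0507 to 0.142). Nsmce2 lost its call without any one of Opg-/- den 1, 3, 4 or 5, WT den 1, 2, 3 or 5, Opg-/- sham 1, 2 or 4, or WT sham 3 or 4 (adjusted p 0.0502 to 0.157). At equal library totals Samd12 (−0.73 in WT) and Fer1l6 (−0.23 in Opg-/-) lost their calls, and Nsmce2 changed sign in Opg-/- (0.19).

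At the deposited scaling, 3 members of the genotype comparison were not called for the transection. Med30 did not pass in either genotype (−0.18 in Opg-/- and 0.28 in WT, adjusted p = 0.305 and 0.124), nor did Sqle (0.37 and −0.07, adjusted p = 0.172 and 0.843) or Washc5 (0.14 and 0.09, adjusted p = 0.102 and 0.337). Of the better known neighbours, Myc stood at 0.01 in Opg-/- and −0.11 in WT, Has2 at −0.77 and −0.80, and Sntb1, a syntrophin of the dystrophin complex, at 0.32 and 0.38, none of them called. The same held for Trps1, a GATA-type repressor (−0.14 and −0.27), Fam91a1, a Golgi vesicle factor (0.02 and −0.04), and Trmt12, a tRNA-modifying enzyme (0.14 and 0.15).

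**Figure D4:**
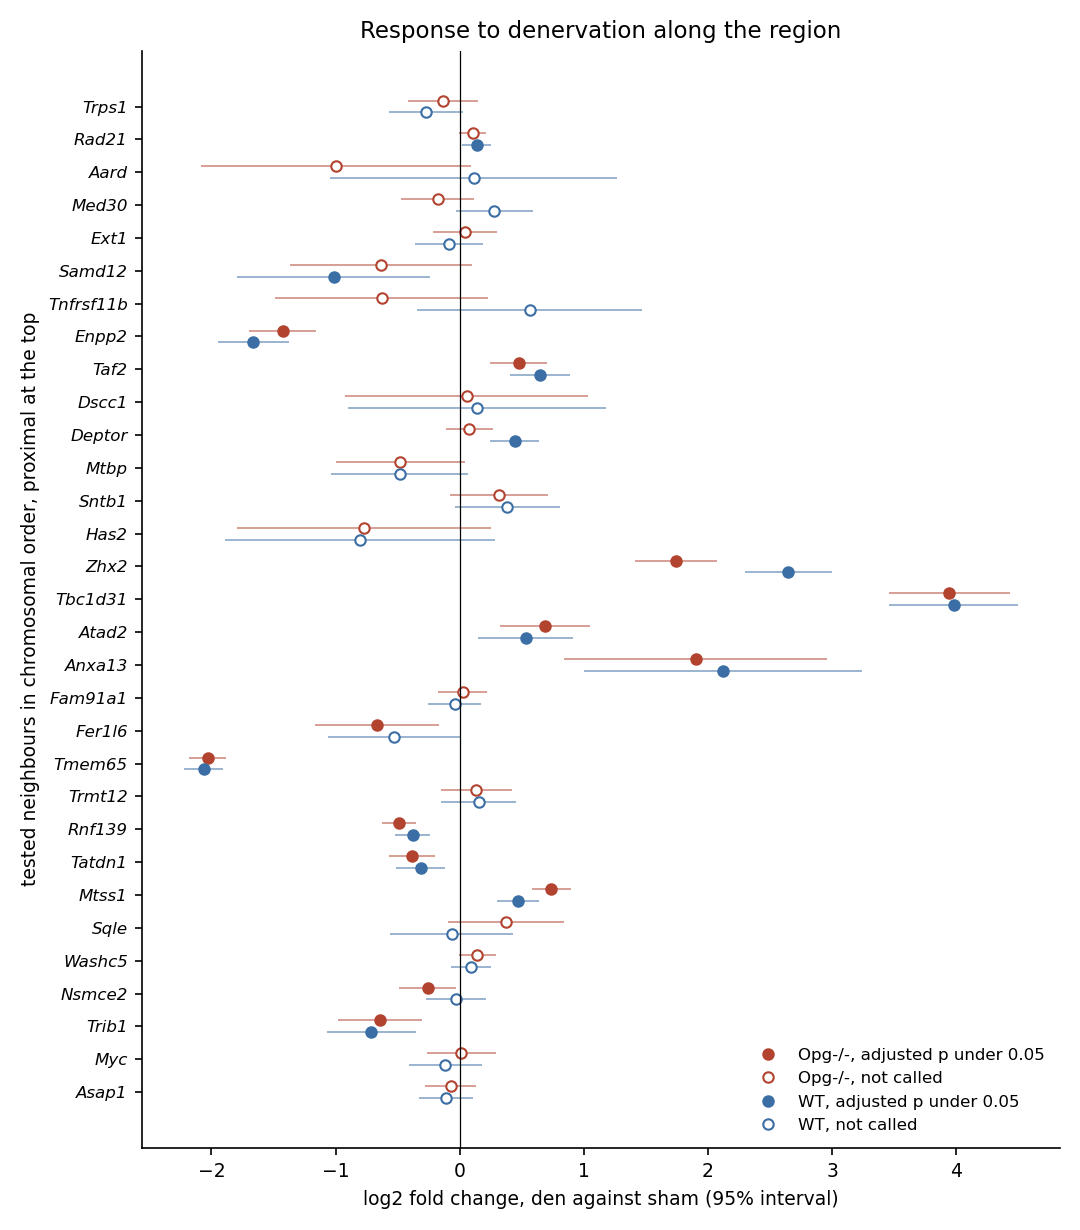
Log2 fold change of den against sham limbs with 95% intervals (x axis) for the 31 tested neighbours in chromosomal order, in Opg-/- (red, upper of each pair) and WT (blue, lower), with filled points for calls. Tbc1d31 (3.94 in Opg-/- and 3.98 in WT) and Tmem65 (−2.03 and −2.06) changed most, and Deptor was called in WT only, although at equal library totals it was called in both genotypes.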

How the data were processed

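Gastrocnemius RNA was sequenced from 20 libraries, 5 for each of 4 groups. The values deposited by the authors are a signal per gene and library, namely expected counts from RSEM after STAR alignment to mm10 (neither version is given in the sources used here), divided by 1 size factor per library. Strand was not recorded. Of the values above 0, 87.1% to 88.1% were whole reads (tolerance 0.001), so no count model served as the main test. Positions were taken from the GENCODE M21 annotation of mm10, which held 99.6% of the gene IDs.

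Genes with a value of 1 or more in 4 or more of 19 counted libraries were kept. On log2(value + 1), 1 fit over all 4 groups was made in limma 3.58.1 (R 4.3.3, trend and robust options) with Benjamini-Hochberg adjustment over all genes. Tnfrsf11b was also compared by an exact permutation test (scipy 1.17.1). EBSeq, which the study used, was not run. The alternatives were other filters, a pseudocount of 0.1, equal library totals, limma voom on recovered reads, separate fits, a replicate block and each library left out. Leaving out WT sham 1 and 2 together was added after the data were seen.

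The members, gene lists and tests were chosen with earlier results of these data known. Values in every library are given for Tnfrsf11b, for members called between genotypes, for members whose genotypes do not overlap in a limb, for those with an absolute log2 fold change above 1 between genotypes, and for Zhx2, Tbc1d31, Tmem65 and Enpp2, the first chosen after its values were seen and the others among the 4 largest denervation changes in each direction. Sequences of the members are not shown here.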

Additional observations from a re-analysis of the deposited data

How the results depend on the processing

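Over 30 alternatives the members called between genotypes numbered 2 to 3 in den limbs and 0 in sham limbs, and Deptor (adjusted p at most 0.00597) and Med30 (at most 0.0153) were called in den limbs under all 30. For denervation, 11 to 18 members were called in Opg-/- and 12 to 15 in WT. With each library left out in turn, 0 to 1 members were called for the interaction (1, Zhx2, without Opg-/- den 5). Counting every tested gene within 10 Mb instead of the named members, 4.84% were called in den limbs. Aard, with a den difference of −0.01, stood at 0.37 with a pseudocount of 0.1, at 0.021 with equal library totals, at 0.11 with limma voom, and between −0.21 and 0.31 with single libraries left out. With equal library totals the den minus sham change in Opg-/- was 0.065 for Tatdn1 and 0.19 for Nsmce2, and the median of all genes was 0.42 (0.26 in WT), while the median genotype difference in sham limbs was −0.11, against 0.02. The cause of these shifts was not tested.

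The number of all genes called between genotypes in sham limbs was 19. It was 56 with WT sham 1 and 2 kept separate. With the pair separate and a random effect for mouse, taken as genotype and replicate number, it was 57. The labels do not show that these numbers mark a mouse. It was 118 with both left out, 35 with equal library totals, 8 with no filter and 4 with limma voom. With single libraries left out it ran from 2 (without WT sham 3) to 35 (without Opg-/- sham 2). In den limbs 11 genes were called, 6 with no filter and 5 to 14 with single libraries left out (5 without Opg-/- den 2). Same-numbered libraries correlated at −0.05 to 0.07 between limbs and −0.09 to 0.06 between genotypes, and 5 of 10 and 3 of 10 correlated best with their own number, so the numbers are not shown to pair libraries. With a replicate block Sqle in den limbs was no longer called (log2 fold change 1.15, adjusted p = 0.0530 in limma) and 46 genes were called in sham limbs. The block fit also kept WT sham 1 and 2 separate, so its 46 stands beside the 56 of that setting. Members with a few reads per library, such as Aard, Dscc1 and Tnfrsf11b, are limited by depth.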
